A study of Mus musculus with 10 samples.

Results

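The genes described here form the Foxp3, IL-2 receptor and STAT5 axis of regulatory T (Treg) cells: the lineage factors Foxp3, Ikzf2 and Ikzf4, the IL-2 receptor chains Il2ra, Il2rb and Il2rg, the signal transducers Stat5a and Stat5b, and the feedback inhibitors Socs2 and Cish. They were chosen by name, and each was read from the probe set (a group of array probes summarised to 1 value) that the platform annotation pairs with that gene alone, taking the one with the highest mean where there were several. Of the 10 genes, 9 had such a probe set, out of 22180 genes measured in all. Il2rg, the chain shared by the receptors of IL-2 and several related cytokines, had none and was not analysed here. Transcripts were measured on one-colour arrays in CD4+ YFP+ cells taken by sorting from the spleen and pLN of chimeric mice, with 5 arrays labelled WT and 5 labelled Fntb KO. The Fntb KO cells carried the Foxp3Cre allele and Fntb fl/fl, so that Cre made in Foxp3-expressing cells removes Fntb, the beta subunit of protein farnesyltransferase. The labels name no treatment and no age, and they do not give the Cre or reporter alleles of the WT cells, the other cells of the chimeras, or whether each array came from its own animal. Errors and p-values therefore cover the differences among these arrays, part of which may be technical.

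Foxp3 is the transcription factor that defines Treg cells. These cells make little IL-2 themselves and depend on IL-2 from other cells, which they bind through a receptor of the alpha chain CD25 (Il2ra), the beta chain CD122 (Il2rb) and the common gamma chain (Il2rg). The receptor activates the kinases JAK1 and JAK3, which phosphorylate STAT5. STAT5 in turn binds the Foxp3 gene, raises Il2ra and induces Cish and Socs2, whose proteins damp cytokine receptor signalling. Helios (Ikzf2) and Eos (Ikzf4) are Ikaros-family zinc finger proteins that act with Foxp3 in stabilising the Treg programme. The transcripts of the axis thus include the lineage factor, the receptor that feeds it and genes that read out STAT5 activity.

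To show what a STAT5 readout gene looks like, the letters TTCNNNGAA, the core of the STAT5 consensus, were searched in the RefSeq promoter windows of the members (build GRCm38.p6, 250 bases before to 50 after an annotated start). The motif is its own reverse complement, so 1 search covers both strands. It was found in 2 of the 9 windows held for 6 members (Foxp3, Il2ra, Il2rg, Stat5a, Stat5b and Cish), and in 8.30% of all 32851 windows. The Cish window, at chr9:107296409-107296708 on the plus strand, held 2 copies in tandem, TTCCTGGAA and TTCTTGGAA, which began at bases 1 and 12 counted from the annotated start as base 1, and which do not overlap. More than 1 copy was present in 0.457% of all windows. One of 2 Foxp3 windows, at chrX:7580233-7580532 on the plus strand, held a single copy, TTCCAAGAA, that began 139 bases before its annotated start (base -139). Capitals mark the motif in the sequences of these 2 windows. A match of letters describes the sequence and is no evidence of binding.
Cish: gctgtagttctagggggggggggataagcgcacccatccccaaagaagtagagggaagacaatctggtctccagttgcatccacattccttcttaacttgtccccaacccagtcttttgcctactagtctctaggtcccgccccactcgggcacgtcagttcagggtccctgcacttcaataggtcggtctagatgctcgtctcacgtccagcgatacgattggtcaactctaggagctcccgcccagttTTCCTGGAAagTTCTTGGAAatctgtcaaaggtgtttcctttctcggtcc
Foxp3: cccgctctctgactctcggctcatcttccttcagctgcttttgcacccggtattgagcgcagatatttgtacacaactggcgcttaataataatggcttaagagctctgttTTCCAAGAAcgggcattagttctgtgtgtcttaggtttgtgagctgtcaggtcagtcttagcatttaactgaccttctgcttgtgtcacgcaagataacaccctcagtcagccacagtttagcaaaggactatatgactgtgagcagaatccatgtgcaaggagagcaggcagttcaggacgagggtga

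The labelled cell type was first set against its markers. The 8 measured T cell markers, among them Cd3e and Cd4, averaged 10.43 to 10.62 per WT array and 10.28 to 10.54 per Fntb KO array on the log2 scale of the deposited values (1 unit is a doubling). B cell markers averaged 3.79 to 3.92 and 3.73 to 4.07, and monocyte or macrophage markers 4.66 to 4.96 and 4.46 to 4.97. Neutrophil markers averaged 3.50 to 3.66 in WT and 3.40 to 4.44 in Fntb KO, where S100a8 was 4.80 ± 1.03 against 3.75 ± 0.25 in WT (SD, n = 5 each; adjusted p 0.321). The 1105 olfactory receptor genes, which T cells are not known to use and which served as a guide chosen after the data were seen, had a median of 2.51. The targeted transcript Fntb differed by -0.65 (SE 0.0963), with an adjusted p of 0.00442 from limma's moderated test, Benjamini-Hochberg adjusted over all genes; where its probes lie against the deleted exons was not examined. In bulk samples such as these, fewer cells of a type and less RNA per cell cannot be told apart. Array medians were lowest (4.09 to 4.12, against 4.19 to 4.25) in WT 2 and in the first and second Fntb KO arrays; these 3 low-median arrays lay apart on the first principal component, and values without them are given where they move a result.

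None of the 9 measured genes of the axis passed an adjusted p under 0.05 in limma's fit over all genes, whose adjusted p for them ran from 0.236 to 0.991. In the same fit 246 of 22180 genes passed (1.11%), so a count of 0 among 9 genes is near the background: 0.807% of all genes were called lower and 0.302% higher. At an unadjusted p under 0.05, 2 members passed (Ikzf2 and Il2rb), beside 9.26% of all genes. Exact permutation of the array labels (two-sided), computed for each of the 9, gave a p under 0.05 for 3 (Foxp3, Ikzf2 and Il2rb), beside 8.99% of all genes. Of the 9 differences 7 were negative and 2 positive, with a median of -0.10, where the median of all genes was 0.01 and 47.5% of them were negative. The 95% intervals of 8 members lay within a 1.5-fold change in either direction, a limit chosen after the values were seen, and that of Ikzf2 reached beyond it. RMA values compress differences of dim genes. All 9 members had a mean at or above that of the median gene. The lowest means were those of Socs2 (6.55 in WT and 6.50 in Fntb KO), where the 95th percentile of the olfactory receptor genes was 4.19. Compression in the member values was not tested.

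**Figure D1:**
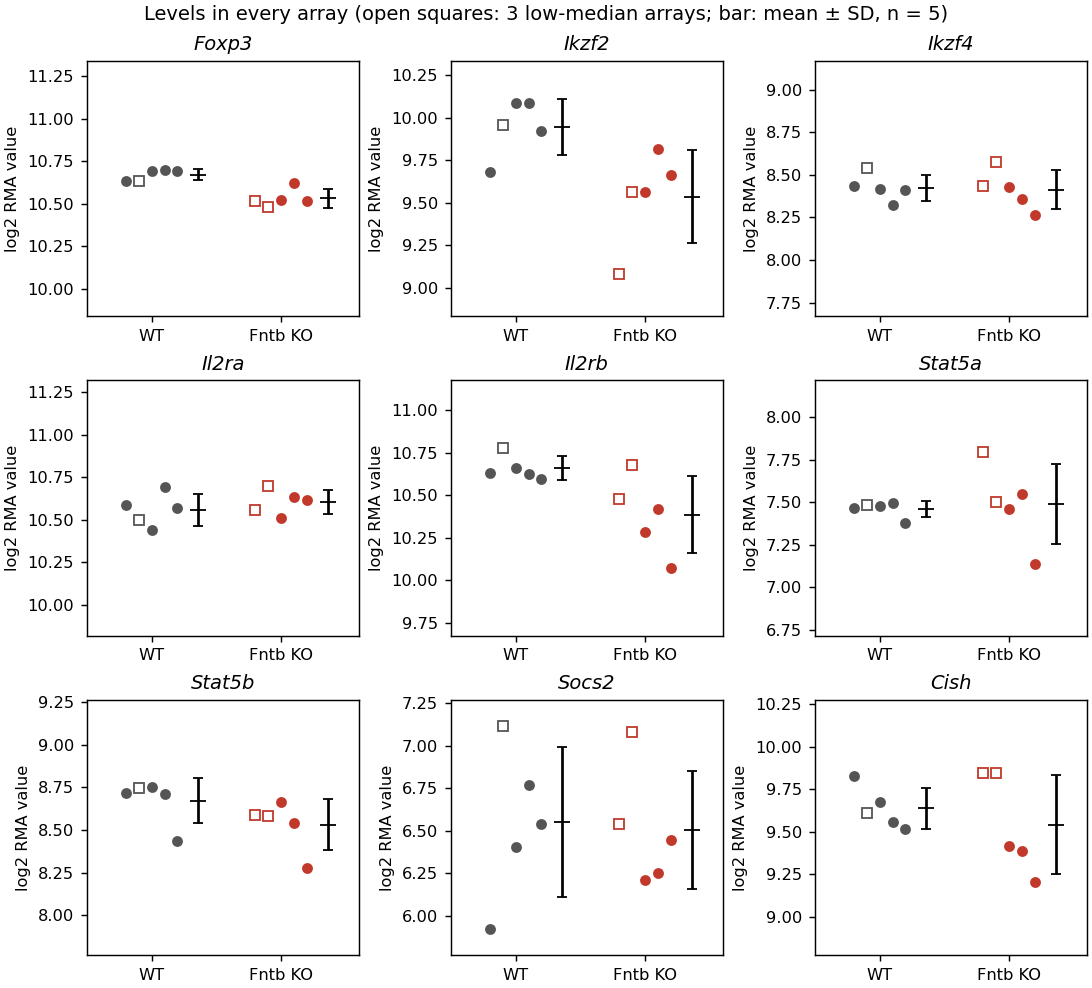
Levels of the 9 measured genes on the log2 scale (y axis, each panel spanning 1.5 units) in 5 WT and 5 Fntb KO arrays; points are arrays from replicate 1 to 5, open squares the 3 low-median arrays, and bars the mean and SD. The groups are separate for Foxp3 alone, and the Fntb KO arrays spread more widely than the WT arrays for Il2rb, Stat5a and Cish.

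Foxp3, the lineage factor, stood at nearly the same level in all 10 arrays. The cells were sorted as YFP+, and whether that sort itself selects on the Foxp3 level was not tested. The 5 WT arrays read 10.64, 10.64, 10.69, 10.70 and 10.70 (replicates 1 to 5), and the 5 Fntb KO arrays 10.52, 10.48, 10.52, 10.62 and 10.52. Every Fntb KO array was below every WT array, and the gap between the nearest arrays, Fntb KO 4 and WT 2, was narrow. The means were 10.67 ± 0.033 and 10.53 ± 0.054 (SD, n = 5 each), a difference of -0.14 (SE 0.0711, 95% interval -0.29 to 0.01), or 0.908 of the WT level. This SE is moderated by limma with the variance of all genes and is larger than either SD. With limma's trend and robust options the SE was 0.0499 and the adjusted p 0.314, so the interval depends on the setting. The exact permutation p, which is unadjusted, was 0.00794, the smallest that 5 against 5 arrays allow. In limma the unadjusted p was 0.0705 and the p adjusted over all genes 0.601. Separate groups with a lower Fntb KO level were found for 1.65% of all genes, and for 1 of the 9 members. In linear terms the interval ran from 0.816 to 1.01 of the WT level. The difference was -0.13 among the 7 arrays left without the low-median ones and -0.14 within the low-median arrays (1 WT, 2 Fntb KO).

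A further probe set, which the annotation pairs with Foxp3 and also with its neighbours Ccdc22 and Ppp1r3f, was outside the rule because it names 3 genes. It went the other way, from 7.21 ± 0.13 to 7.46 ± 0.14 (SD, n = 5 each), a difference of 0.26 with overlapping groups and an adjusted p of 0.482 in limma's fit over every probe set. Which of the 3 genes it reads cannot be told from the annotation.

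Ikzf2, which encodes Helios, had the largest difference of the 9. Its WT arrays read 9.68, 9.96, 10.08, 10.09 and 9.92, and its Fntb KO arrays 9.08, 9.56, 9.56, 9.81 and 9.66. The groups overlapped through WT 1 and Fntb KO 4, the other 4 Fntb KO arrays lay below all WT arrays, and Fntb KO 1 was far below its group. Means of 9.95 ± 0.16 and 9.54 ± 0.28 (SD, n = 5 each) gave a difference of -0.41 (SE 0.130, 95% interval -0.69 to -0.13), 1.33-fold lower. The adjusted p was 0.236 in limma and the exact permutation p 0.0159, and 1.81% of all genes had a lower difference. Without the 3 low-median arrays, to which Fntb KO 1 belongs, the difference was -0.26, and without Fntb KO 1 alone it was -0.30.

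Ikzf4, which encodes Eos, differed little between the genotypes. The WT arrays read 8.43, 8.54, 8.42, 8.32 and 8.41, and the Fntb KO arrays 8.44, 8.58, 8.43, 8.36 and 8.26. The ranges nearly coincided, with Fntb KO arrays holding both the highest and the lowest value. The difference of -0.01 (SE 0.0830) had a 95% interval of -0.19 to 0.17, or 0.877 to 1.12 of the WT level, and an adjusted p of 0.991. Its sign depended on the scaling: after another quantile normalization of the gene values it was 0.04.

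The receptor chains gave estimates of opposite sign, and the difference between them was not tested. Il2ra, the high-affinity alpha chain CD25, read 10.59, 10.50, 10.44, 10.69 and 10.57 in WT and 10.56, 10.70, 10.51, 10.63 and 10.62 in Fntb KO. The Fntb KO values lay within the WT range apart from Fntb KO 2, which was slightly above it. The means were 10.56 ± 0.096 and 10.60 ± 0.072 (SD, n = 5 each), a difference of 0.05 (SE 0.0794, 95% interval -0.12 to 0.22) with an adjusted p of 0.936. In linear terms the interval ran from 0.918 to 1.16 of the WT level.

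Il2rb, the signalling beta chain CD122 that also serves IL-15, read 10.63, 10.78, 10.66, 10.62 and 10.60 in WT and 10.48, 10.68, 10.28, 10.42 and 10.07 in Fntb KO. The WT arrays were close together, 4 Fntb KO arrays lay below all of them, and Fntb KO 2 lay among them. The means were 10.66 ± 0.071 and 10.38 ± 0.23 (SD, n = 5 each), a difference of -0.27 (SE 0.106, 95% interval -0.50 to -0.05), 1.21-fold lower. Its adjusted p was 0.400 and its exact permutation p 0.0397. The difference was -0.37 among the 7 arrays outside the low-median ones (adjusted p 0.185) and -0.20 within those 3. CD8 T and NK cells also carry CD122, and of 7 measured markers of these cells 1 fell, beside 0.807% of all genes, while 5 had a positive difference and the median was 0.11. The one was Nkg7, from 7.58 ± 0.22 to 6.79 ± 0.26 (SD, n = 5 each), a difference of -0.79 with an adjusted p of 0.0126. Without the 3 low-median arrays its difference was nearly as large, -0.74, at an adjusted p of 0.0750 on fewer arrays. The mean level of that list was 4.76 to 4.99 per WT array and 4.71 to 4.97 per Fntb KO array, and its part in the Il2rb values was not tested.

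**Figure D2:**
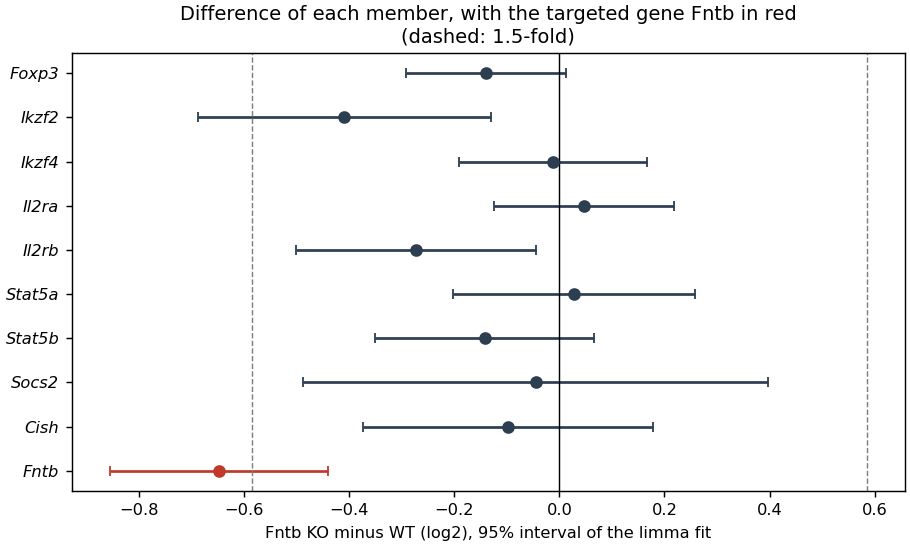
Difference between Fntb KO and WT on the log2 scale (x axis) for the 9 members and, in red, the targeted gene Fntb; points are estimates of limma's fit, bars their 95% intervals, and dashed lines a 1.5-fold change. The intervals of Ikzf2 and Il2rb leave out 0, and that of Foxp3 reaches 0.01.

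The paralogs Stat5a and Stat5b lie beside each other on chromosome 11 and encode closely related proteins that carry the IL-2 signal to the nucleus. Stat5a read 7.47, 7.48, 7.48, 7.50 and 7.38 in WT, and 7.79, 7.50, 7.46, 7.55 and 7.14 in Fntb KO. The Fntb KO arrays lay on both sides of the WT arrays, with Fntb KO 1 the highest and Fntb KO 5 the lowest of all 10. The SD was 0.048 in WT and 0.23 in Fntb KO, and the difference was 0.03 (SE 0.107, 95% interval -0.20 to 0.26, adjusted p 0.976). Without Fntb KO 1 it was -0.05, and without the 3 low-median arrays -0.07.

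Stat5b read 8.72, 8.75, 8.75, 8.71 and 8.44 in WT, and 8.59, 8.58, 8.67, 8.54 and 8.28 in Fntb KO. In each genotype replicate 5 lay below the rest, and apart from those 2 arrays all Fntb KO values were below the WT values. The means were 8.67 ± 0.13 and 8.53 ± 0.15 (SD, n = 5 each), a difference of -0.14 (SE 0.0966, 95% interval -0.35 to 0.07) with an adjusted p of 0.736. It was -0.20 without WT 5 and -0.08 without Fntb KO 5.

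The feedback genes, which STAT5 induces, did not pass, and the values of Cish split by array. Cish, which encodes the inhibitor CIS and carries the tandem motif shown above, read 9.82, 9.61, 9.67, 9.56 and 9.52 in WT and 9.85, 9.84, 9.42, 9.39 and 9.20 in Fntb KO. The Fntb KO arrays fell apart into the 2 low-median ones, above all WT arrays, and 3 others, below all WT arrays; the low-median WT array lay within the WT range. Over all arrays the difference was -0.10 (SE 0.128, 95% interval -0.37 to 0.18, adjusted p 0.901). It was 0.23 within the low-median arrays (1 WT, 2 Fntb KO) and -0.31 among the other 7 (adjusted p 0.342), so the direction was not the same in the 2 sets of arrays. The first of these values rests on 1 WT array. A further Cish probe set differed by -0.06, with 8.60 and 8.53 in Fntb KO 1 and 2 and 8.20 to 8.34 in Fntb KO 3 to 5, where WT ran from 8.36 to 8.54.

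Socs2, which limits growth hormone and cytokine receptor signalling, varied more between arrays of 1 genotype than any other member. It read 5.92, 7.12, 6.40, 6.77 and 6.54 in WT, and 6.54, 7.08, 6.21, 6.25 and 6.45 in Fntb KO. The Fntb KO range lay inside the WT range, and the highest array of each genotype, WT 2 and Fntb KO 2, was a low-median one. The difference was -0.05 (SE 0.206, 95% interval -0.49 to 0.40, adjusted p 0.979), the widest interval of the 9. It was -0.11 without the 3 low-median arrays and -0.31 within those arrays (1 WT, 2 Fntb KO). A further probe set of Socs2, at a mean of 5.11 in WT, differed by -0.02.

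Single arrays stood out across several members. Fntb KO 5 was the lowest of the 10 arrays for 5 of 9 members (Ikzf4, Il2rb, Stat5a, Stat5b and Cish), where it was lowest for 15.0% of all genes. The SD was higher in Fntb KO than in WT for 7 of 9 members, beside 61.8% of all genes. Fntb KO 5 lay at the opposite end of the first principal component from the low-median arrays, and the part of that component in the member values was not tested.

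**Figure D3:**
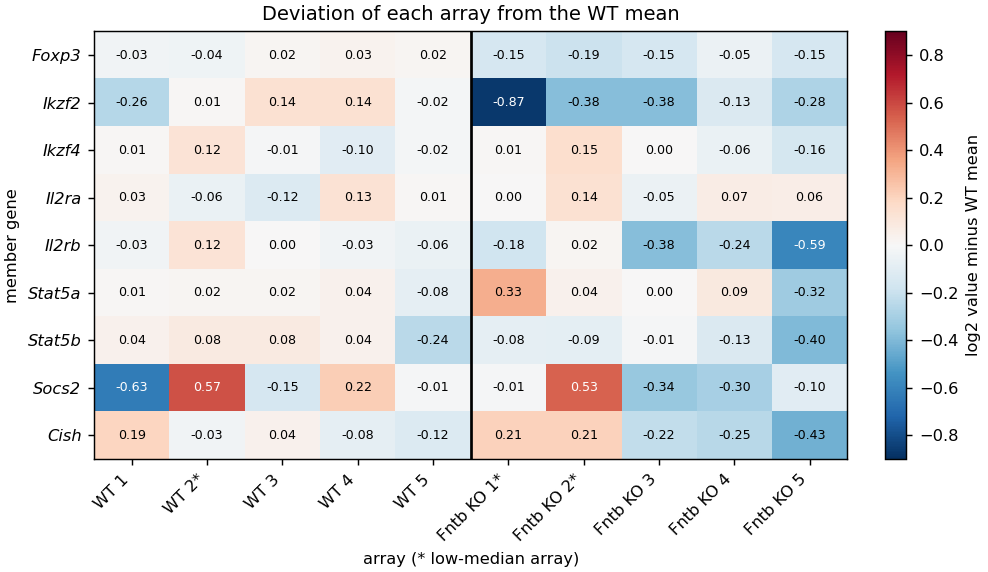
Log2 value of each of the 10 arrays (columns, an asterisk marks the 3 low-median arrays) minus the WT mean, for the 9 members (rows); red is above and blue below the WT mean. Foxp3, Ikzf2 and Stat5b are below the WT mean in all 5 Fntb KO arrays, Cish is above it in 2 and below it in 3, and Fntb KO 5 is lowest for 5 members.

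The rest of the pathway was read from 7 lists holding 100 genes, of which 94 were measured. Over the lists 2 genes fell and 0 rose, beside 1.11% of all genes called, with a median difference of -0.09 against 0.01 over all genes. The 2 were Uhrf1 and Ezh2, among 31 measured cofactors of Foxp3 and regulators of its locus. Uhrf1, which recruits the enzyme that maintains DNA methylation, went from 5.59 ± 0.11 to 5.08 ± 0.17 (SD, n = 5 each), or 1.43-fold down (adjusted p 0.0202 in limma). Ezh2, the histone H3 lysine 27 methyltransferase, went from 7.43 ± 0.099 to 7.03 ± 0.10, or 1.32-fold down (adjusted p 0.0363 in limma). The groups did not overlap for either gene, and their calls were fragile. Without the 3 low-median arrays neither passed, at differences of -0.52 and -0.44 (adjusted p 0.112 and 0.0690). With 1 array left out in turn, Uhrf1 lost its call without WT 2, WT 3, WT 4, WT 5, Fntb KO 3 or Fntb KO 5, at differences of -0.50 to -0.47, and Ezh2 lost it in 9 of 10 such fits, all but the one without Fntb KO 1, at -0.43 to -0.37. The list's median was -0.09. Its largest difference was that of Nfatc1 (-0.53, adjusted p 0.0829 in limma), named after its value was seen. Nfatc1 passed under 3 of 18 alternatives (adjusted p 0.0129 to 0.0394 in limma).

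Upstream of STAT5, no gene passed, beside 1.11% of all genes. The 12 measured genes for IL-2, the JAK kinases and receptor-proximal signalling had a median of -0.05 and differences between -0.23 and 0.13, the largest in size for the phosphatase Ptpn11 (-0.23, adjusted p 0.663). Jak3, the kinase bound to the gamma chain, was not analysed here. The 11 other subunits and cytokines of the gamma-chain family had a median of -0.02, and Il7r, the IL-7 receptor alpha chain, had the largest difference (-0.32, SE 0.103, adjusted p 0.235). All 4 other STAT genes measured were lower in the mean, by -0.25 to -0.11 with a median of -0.15. Stat4, the transducer of IL-12, was at 9.43 ± 0.099 in WT and 9.18 ± 0.097 in Fntb KO (SD, n = 5 each), and its groups did not overlap, although its adjusted p was 0.261.

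Downstream of STAT5 the values went in both directions. Among 20 STAT5 or IL-2 target genes outside the members 0 rose and 0 fell in limma's fit, beside 0.302% and 0.807% of all genes. A count of 0 among 20 is near those shares. Of the 20, 14 had a negative and 6 a positive difference, where 47.5% of all genes were negative, and the median was -0.10. The largest difference was that of Gzmb, the cytotoxic protease granzyme B (-0.83, SE 0.225, adjusted p 0.141), from a dim level of 4.12 ± 0.57 in WT to 3.29 ± 0.25 in Fntb KO (SD, n = 5 each). Each of these means lay below 4.19, the 95th percentile of the olfactory receptor genes, so Gzmb was read near the background. Blocking on the 3 low-median arrays, 4 of the 20 fell: Gzmb (-0.92, adjusted p 0.0445), Tnfrsf4 (-0.41, 0.0429), Tnfrsf9 (-0.40, 0.0180) and Tnfrsf1b (-0.61, 0.0187). All but Gzmb are named after their values were seen. With that block 275 of all 22180 genes were called lower and 93 higher. Without those 3 arrays 0 of the 20 passed, where 109 of all genes were called lower and 41 higher. The groups did not overlap for 5 of the 20, beside 2.67% of all genes, and these 5 are named after their values were seen. Ctla4 (-0.39, adjusted p 0.0778), Tnfrsf9 (-0.35, 0.131) and Tnfrsf1b (-0.56, 0.0619) were lower in every Fntb KO array. Their calls depended on the setting: over 18 alternatives Tnfrsf1b passed under 6 (adjusted p 0.0187 to 0.0499), Ctla4 under 2 (0.0343 and 0.0458) and Tnfrsf9 under 1 (0.0180). Bcl2, the survival factor (0.19, 0.399), and the cytokine gene Lta (0.35, 0.220) were higher in every one. Several of these genes respond to T cell receptor or costimulatory signals as well, so the list is not a readout of STAT5 alone. The list was also not split into targets that STAT5 raises and those it lowers. Its median and counts of signs therefore give no direction of STAT5 output.

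In the remaining lists no gene passed. Of 13 other SOCS genes and negative regulators 0 rose and 0 fell, beside 0.302% and 0.807% of all genes. Their median was -0.04, and Socs3 had the largest difference (-0.29, adjusted p 0.627). Of the other Ikaros-family genes Ikzf3, which encodes Aiolos, had the largest difference (-0.14, adjusted p 0.744).

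**Figure D4:**
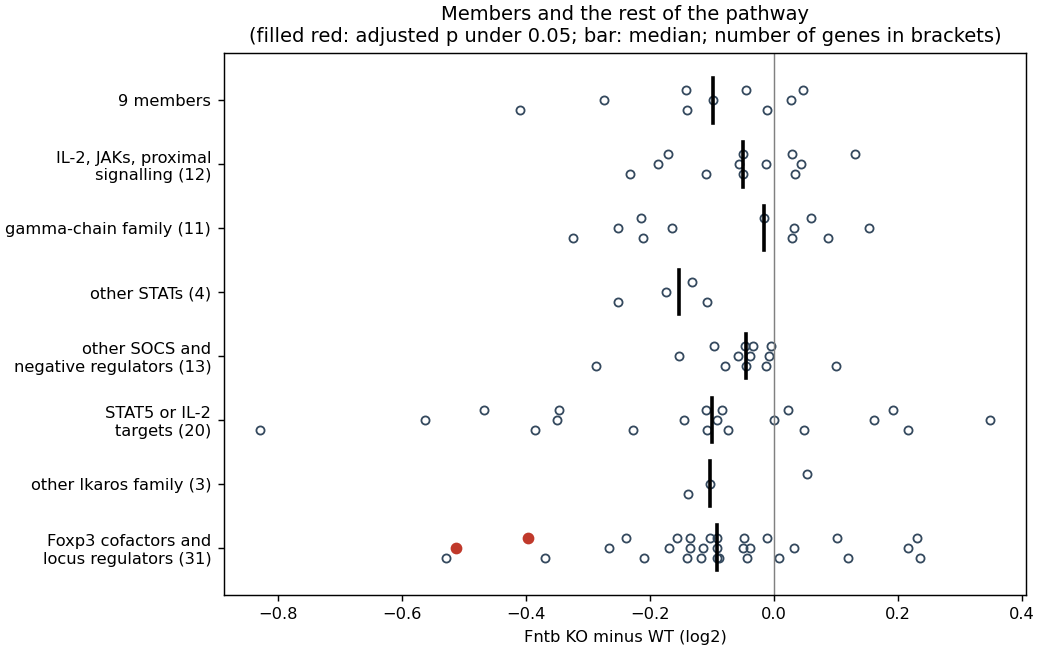
Difference between Fntb KO and WT on the log2 scale (x axis) for the 9 members and for the 7 pathway lists (rows, number of measured genes in brackets); each circle is a gene, a filled red circle one that passed the threshold, and a bar the median. The 2 red circles are Uhrf1 and Ezh2, and the medians lie between -0.15 and -0.02.

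The genes whose profile over the 10 arrays was most like that of Foxp3, among 11089 others at or above the median level, were Mier1, Rev1 and Mbnl1. Likeness was the root-mean-square difference of the log2 profiles after each was centred on its own mean, which was 0.0466, 0.0489 and 0.0495 for them against a median of 0.205. Foxp3 itself varied by only 0.0805 on this measure, which any nearly flat gene would therefore score, and genes so chosen must have similar differences between genotypes (-0.12, -0.18 and -0.14, none past the threshold). For Ikzf2 the nearest profiles were those of Mdfic (0.110), Itpkb (0.119) and Lgals3 (0.128), against a median of 0.344 and 0.288 for the variation of Ikzf2 itself, with differences of -0.39, -0.31 and -0.31. The profiles share the arrays, and with them their depth of signal and quality.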

How the data were processed

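The deposited values are log2 values that the authors made with RMA in Affymetrix Expression Console 1.1, per the submitters' processing notes: RMA corrects background, makes the array distributions alike and summarises probes per probe set. Other settings of RMA: not given in the sources used here. Both deposited tables, the authors' own and the series matrix, held identical values. Of 41345 probe sets, the 23521 that GEO's platform annotation pairs with 1 gene symbol were used, named through Entrez identifiers (RefSeq genes of GRCm38.p6, 23328 matched); 1820 with several symbols and 16004 unnamed here were left out. The highest-mean probe set was kept for each of 22180 genes, with no filter on dim genes.

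The 5 Fntb KO and 5 WT arrays were compared with limma 3.58.1 (R 4.3.3, statmod 1.5.0), with lmFit and eBayes and no covariate. The threshold was a Benjamini-Hochberg adjusted p under 0.05 over all genes, and intervals are 95%. Positive differences are higher in Fntb KO. For single genes an exact permutation test (two-sided, all 252 ways to assign the arrays) was added. The fit was checked on simulated data. Replicate numbers are names and pair nothing, and the number of arrays limits the precision.

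The members, the gene lists and the alternatives were chosen with earlier results of these data known. Named are the members, Fntb, the called members of each pathway list (up to 4; with none called, the one with the largest difference), the largest difference of each marker list, and the 3 profiles most like Foxp3 and Ikzf2; others are marked as named after their values were seen. The markers with the largest difference in their lists, other than Nkg7, were Cd3e (-0.16), Cd79b (-0.41), Csf1r (-0.28), S100a8 (1.05), Xcr1 (0.15), Car1 (-0.23) and Pdgfrb (0.28), and none of them passed. Sequences are RefSeq's (GRCm38.p6); promoter windows were held for 6 of the 10 members.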

Additional observations from a re-analysis of the deposited data

Results flagged for a closer look

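Stat5b in WT 5 (8.44) and Stat5a in WT 5 (7.38) each lay far below the other 4 WT arrays, by Dixon's test at the 95% level. The gaps to the nearest array took 0.859 and 0.774 of the group's whole range. Of 20 groups tested, 2 gave such a gap, and chance gives about 1 in 20. Both genes were read from the same array, and they are neighbours on chromosome 11.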

How the results depend on the processing

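Each member was refitted under up to 19 alternatives, 164 fits in all, and no member passed in any of them. In 34 the setting leaves the difference as it was, and of the other 130 fits 119 kept the direction. The remaining 11 concerned differences near 0. Ikzf4 (-0.01) was 0.0396 after another quantile normalization and ran from -0.0525 to 0.0262 with 1 array left out in turn. Stat5a (0.03) was -0.00594 when the 3 low-median arrays formed a block, -0.0721 without them and -0.0482 to 0.12 with 1 array left out. Socs2 (-0.05) ran from -0.20 to 0.10 with 1 array left out. The other 6 members kept their sign, Foxp3 between -0.16 and -0.12, Ikzf2 between -0.48 and -0.26, Il2rb between -0.37 and -0.19, Stat5b between -0.20 and -0.0788 (without Fntb KO 5), Cish between -0.31 (without the 3 arrays) and -0.0138 (without Fntb KO 5) and Il2ra between 0.0150 (without the 3 arrays) and 0.0804 (without WT 4). The number of genes lower in Fntb KO (179) was 275 with the block, 109 without the 3 arrays and 95 to 192 with 1 array left out; fewest came without WT 3, WT 4, WT 2 and WT 5 (95, 102, 116 and 118). That of genes higher (67) was 41 without the 3 arrays and 32 to 61 with 1 left out, where the fits without WT 3, WT 4 and WT 5 gave 32, 33 and 35. Of the 94 pathway genes 2 passed, but 4 did with trend and robust, 5 with array weights, 6 with the block, 0 without the 3 arrays and 0 to 3 with 1 array left out. Calls over all genes moved too: 184 lower and 68 higher with trend and robust, 206 and 80 with array weights, and 275 and 93 with the block. Why the counts moved was not tested.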
